A study of Mus musculus with 6 samples.

Results

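The sensors and factors of the unfolded protein response were followed through 10 genes in mouse bone marrow stem and progenitor cells. They were taken by name from the single-symbol rows of the deposited array table and fell into an IRE1 branch (Ern1, Xbp1, Dnajb9 and Edem1), an ATF6 branch (Atf6 and Herpud1) and a PERK branch (Eif2ak3, Atf4, Ddit3 and Trib3). All 10 were measured, each by 1 row, among 19938 genes in all. Affymetrix arrays had been hybridised with mouse RNA, 3 labelled p65 knockout (KO) and 3 labelled p65 wild-type (WT), to ask how loss of p65 affects these cells. The titles number the arrays and do not say whether each holds RNA of 1 mouse. RelA, or p65, is a DNA-binding NF-κB subunit, and the series title places its deletion in the hematopoietic compartment. The labels used here state no deleter strain, age or sex. Cells of both groups came from a sort for c-kit and Sca-1 that left out lineage-marked and Flk2 cells, a gate that enriches for stem cells, and their RNA was amplified before labelling. Values are log2 signals, and fold changes are KO over WT.

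The unfolded protein response adjusts the endoplasmic reticulum (ER) to its load of proteins. Its membrane sensors are IRE1, which splices Xbp1 mRNA so that an active transcription factor is made, ATF6, which is cleaved to free a transcription factor, and PERK, a kinase that slows translation through eIF2α and favours translation of ATF4. In hematopoietic stem cells this response is known to bear on survival under protein stress. Splicing, cleavage and phosphorylation are not read by a gene-level array signal, so the values below concern transcript levels and not the activity of any branch.

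Rela itself had signals of 7.33, 7.48 and 7.35 in KO arrays, against 7.52, 7.89 and 7.92 in WT arrays, and the groups did not overlap. In 15.4% of all genes every KO value likewise lay below every WT value. Its log2 fold change was -0.39 (SE 0.16, limma adjusted p = 0.209). Rela passed as lower under quantile normalization (log2 fold change -0.63, limma adjusted p = 0.0499), cyclic loess (-0.64, 0.0336), array weights (-0.49, 0.0292) and without WT replicate 1 (-0.51, 0.0400). It did not pass under the other 10 alternative settings. Where its probes lie relative to the deleted part was not examined. Kit (10.12 in KO and 10.43 in WT), a gene of the sort, and Cd34 (10.80 in KO and 10.76 in WT), not sorted on, were bright in both groups. They are the 2 brightest of 9 measured stem and progenitor cell markers, and the others are described further below. Over all genes limma called 163, or 0.818%, at an adjusted p under 0.05, with 137 higher and 26 lower in KO. The split was 77 higher and 38 lower after quantile normalization, and 154 higher and 98 lower after cyclic loess. A fit blocked on the replicate number called 372 genes, or 1.87%. WT replicate 1 stood apart, with correlations of 0.951 to 0.963 with the other arrays, against 0.982 to 0.994 among those. Without it 929 genes passed, or 4.66%. Fold changes also followed signal strength. With genes cut into 3 equal groups by mean signal, the median log2 fold change was -0.22 among dim genes, -0.09 among those between and 0.30 among bright genes. Without WT replicate 1 the median of the bright genes was 0.13.

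None of the 10 sensors and factors passed limma over all genes (0 of 10, against 0.818% of all genes). At an unadjusted limma p under 0.05 there were 4, Xbp1, Edem1, Atf6 and Herpud1, all higher in KO. Of all genes 21.6% passed that level, 13.8% higher and 7.76% lower. In 5 genes, these and Atf4, every KO value lay above every WT value, as in 19.2% of all genes and 43.9% of the bright genes defined above. Of the bright genes 32.9% reached an unadjusted limma p under 0.05 in either direction. In 0 of the 10 did every KO value lie below every WT value, as in 15.4% of all genes and 2.14% of the bright genes. The median log2 fold change was 0.42 over the 10 genes and -0.04 over all genes, and 7 of the 10 belonged to the bright genes, whose median was 0.30. Without WT replicate 1 the median of the 10 was 0.14, and after quantile normalization it was 0.12. For the bright genes these medians were 0.13 and 0.01. In such bulk samples fewer cells of a type and less RNA per cell cannot be told apart.

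**Figure D1:**
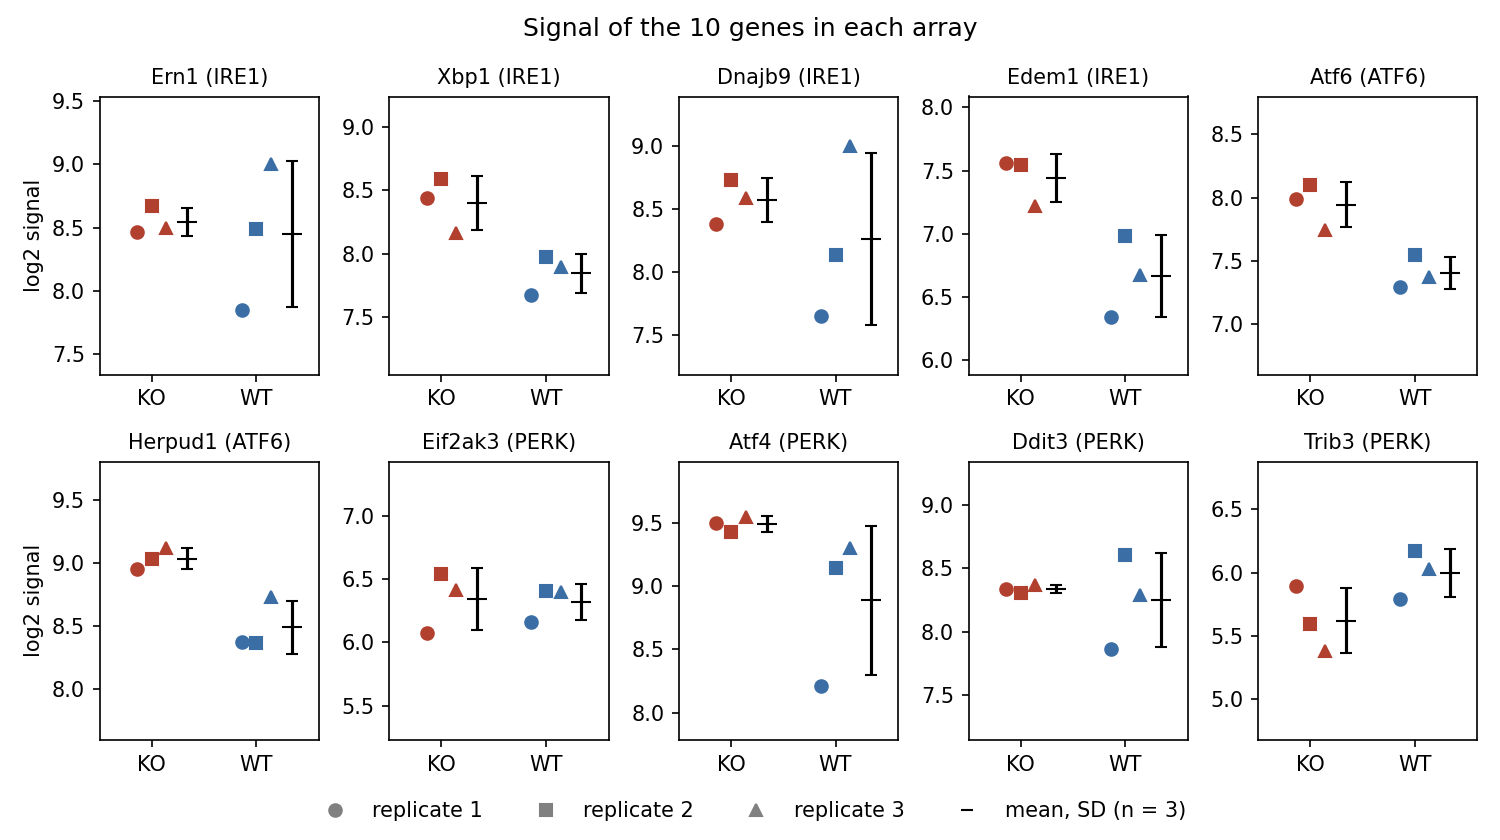
Log2 signal (vertical axis, each panel spanning the same range) of each of the 10 genes in 3 KO arrays (red, left) and 3 WT arrays (blue, right), with marker shape giving the replicate number and bars the mean and SD (n = 3). All KO values of Xbp1, Edem1, Atf6, Herpud1 and Atf4 lie above all WT values, while the groups overlap for Ern1, Dnajb9, Eif2ak3, Ddit3 and Trib3.

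Promoter windows from RefSeq (GRCm38.p6, 250 bases before to 50 after the annotated start) were found for 9 of the 10 genes, Atf6 having no entry. They were searched on both strands for the ER stress element ERSE (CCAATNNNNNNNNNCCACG), ERSE-II (ATTGGNCCACG), the core of the XBP1 and ATF6 element UPRE (TGACGTGG), the composite element of ATF4 and C/EBP (TTGCATCA) and the NF-κB consensus site. ERSE occurs in 0.119% of 32851 windows, ERSE-II in 0.0365%, the UPRE core in 0.676%, the composite element in 0.895% and the NF-κB site in 4.51%. Among the 9 windows Herpud1 held ERSE-II and the composite element, Edem1 held an NF-κB site, and no other match was found with these letters. Of the pathway genes described further below, Pdia6 and Hspa5 held ERSE, Dnajb11 held ERSE-II and Ero1a an NF-κB site. The windows of Sdf2l1, Eif2s2, Eif2b2 and Col6a1 held none of these letters, and Hyou1 and Hgsnat had no entry. The windows of Herpud1, Pdia6 and Dnajb11 are shown for their ER stress elements, and that of Edem1 for the 1 NF-κB match among the 9 windows. In these 4 genes every KO value lay above every WT value, as in 19.2% of all genes and 43.9% of the bright genes. Pdia6 and Dnajb11 had been named for the smallest limma p of their list. Of the pathway genes without a match, Sdf2l1, Eif2s2 and Eif2b2 also had every KO value higher, while Col6a1 overlapped. A match in letters describes the window and does not show binding. Capitals mark the matches, and all 4 windows are on the plus strand. The windows are chr8:94386179-94386478 for Herpud1, chr6:108828391-108828690 for Edem1, chr12:17266339-17266638 for Pdia6 and chr16:22857595-22857894 for Dnajb11. That of Edem1 lies wholly inside the span given for the gene further below. In Herpud1 the composite element comes first and ERSE-II second.
Herpud1: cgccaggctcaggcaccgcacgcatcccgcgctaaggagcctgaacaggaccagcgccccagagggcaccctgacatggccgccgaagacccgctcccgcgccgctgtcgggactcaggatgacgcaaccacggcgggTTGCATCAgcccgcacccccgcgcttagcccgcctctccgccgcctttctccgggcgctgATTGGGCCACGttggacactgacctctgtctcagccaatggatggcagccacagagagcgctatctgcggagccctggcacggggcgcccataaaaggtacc
Edem1: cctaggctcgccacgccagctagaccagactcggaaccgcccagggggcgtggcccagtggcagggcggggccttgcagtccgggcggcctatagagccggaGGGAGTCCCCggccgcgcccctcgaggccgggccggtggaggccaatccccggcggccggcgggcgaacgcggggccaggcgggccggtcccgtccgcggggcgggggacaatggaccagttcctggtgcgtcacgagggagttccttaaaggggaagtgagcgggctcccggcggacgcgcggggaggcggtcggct
Pdia6: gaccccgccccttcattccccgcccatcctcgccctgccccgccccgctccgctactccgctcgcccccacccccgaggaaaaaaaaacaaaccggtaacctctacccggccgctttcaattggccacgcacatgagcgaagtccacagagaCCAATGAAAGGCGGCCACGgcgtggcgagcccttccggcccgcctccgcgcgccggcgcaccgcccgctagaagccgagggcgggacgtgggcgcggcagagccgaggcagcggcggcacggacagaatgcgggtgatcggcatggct
Dnajb11: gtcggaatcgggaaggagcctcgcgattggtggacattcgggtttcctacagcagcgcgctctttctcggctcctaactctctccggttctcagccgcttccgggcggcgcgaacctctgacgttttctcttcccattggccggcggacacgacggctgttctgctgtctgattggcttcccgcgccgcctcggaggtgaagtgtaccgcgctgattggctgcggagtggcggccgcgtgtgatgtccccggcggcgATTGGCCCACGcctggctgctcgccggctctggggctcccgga

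In the IRE1 branch the factor Xbp1 and the degradation gene Edem1 had higher signals in every KO array, while the sensor Ern1 and the co-chaperone gene Dnajb9 had not. Ern1 (GRCm38.p6, chr11:106397620-106487796) encodes IRE1α, the kinase and endoribonuclease of the ER membrane. Its signals were 8.47, 8.67 and 8.49 in KO arrays, against 7.85, 8.49 and 9.002 in WT arrays. The 3 KO values lay inside the WT range, whose SD (0.58) was larger than that in KO (0.11). The log2 fold change of Ern1 was 0.10 (SE 0.27, 95% interval -0.52 to 0.71), and it was -0.20 without WT replicate 1.

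Xbp1 (chr11:5520641-5525993) encodes the transcription factor that IRE1 splicing activates, and its row does not separate spliced from unspliced mRNA. Its signals were 8.44, 8.59 and 8.17 in KO arrays, against 7.67, 7.97 and 7.89 in WT arrays. The lowest KO array, replicate 3, lay above the highest WT array, replicate 2. Xbp1 averaged 8.40 ± 0.22 in KO and 7.84 ± 0.16 in WT (SD, n = 3 each), 1.47-fold (log2 fold change 0.55, SE 0.16, limma adjusted p = 0.132). A two-sided exact permutation test of Xbp1 had p = 0.1, which is the minimum with 3 arrays a group.

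Edem1 (chr6:108824045-108859356) encodes a lectin that directs misfolded glycoproteins to degradation, and it is a known target of XBP1. It had signals of 7.56, 7.54 and 7.22 in KO arrays, against 6.34, 6.98 and 6.68 in WT arrays. KO replicates 1 and 2 were close to each other, and WT replicate 1 was the lowest array. Edem1 averaged 7.44 ± 0.19 in KO and 6.67 ± 0.32 in WT (SD, n = 3 each), 1.71-fold, the widest difference of the 10 genes. Its log2 fold change was 0.77 (SE 0.19, limma adjusted p = 0.0999) and the exact permutation p was 0.1. With limma's array weights, which gave WT replicate 1 a weight of 0.116 and the others 0.935 to 2.2, Edem1 passed (limma adjusted p = 0.0293). That setting called 1599 genes in all.

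Dnajb9 (chr12:44205897-44210068), which encodes the ER co-chaperone ERdj4, had signals of 8.38, 8.73 and 8.59 in KO arrays, against 7.65, 8.13 and 8.998 in WT arrays. WT replicate 3 was the highest of all 6 arrays and WT replicate 1 the lowest, as in Ern1. The log2 fold change of Dnajb9 was 0.31 (SE 0.31, 95% interval -0.40 to 1.02), and it was 0.0027 without WT replicate 1 and 0.67 without WT replicate 3 (limma adjusted p = 0.132).

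Both genes of the ATF6 branch had higher signals in every KO array. Atf6 (chr1:170704457-170868585) encodes the sensor that is cleaved in the Golgi to release a transcription factor. Its signals were 7.99, 8.10 and 7.75 in KO arrays, against 7.29, 7.54 and 7.37 in WT arrays. The gap between KO replicate 3 and WT replicate 2 was narrow, but the groups did not overlap. Atf6 averaged 7.94 ± 0.18 in KO and 7.40 ± 0.13 in WT (SD, n = 3 each), 1.45-fold (log2 fold change 0.54, SE 0.15, limma adjusted p = 0.123, exact permutation p = 0.1). With array weights Atf6 also passed (limma adjusted p = 0.0494).

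Herpud1 (chr8:94386429-94395371) encodes a membrane protein of the ER degradation machinery, and its promoter, shown above, carries the ERSE-II letters. Signals were 8.95, 9.03 and 9.12 in KO arrays, against 8.37, 8.37 and 8.73 in WT arrays. The KO arrays lay close together, and WT replicate 3 came nearest to them. The means of Herpud1 were 9.03 ± 0.08 in KO and 8.49 ± 0.21 in WT (SD, n = 3 each), 1.46-fold (log2 fold change 0.54, SE 0.15, limma adjusted p = 0.123, exact permutation p = 0.1). After quantile normalization its log2 fold change was 0.21 and that of Atf6 0.27.

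The genes of the PERK branch had fold changes of both signs, and none reached an unadjusted limma p under 0.05. Eif2ak3 (chr6:70844484-70905241) encodes PERK, the eIF2α kinase of the ER. Its signals were 6.07, 6.54 and 6.41 in KO arrays, against 6.16, 6.41 and 6.40 in WT arrays. The groups overlapped, and replicate 1 was the lowest array within each group. The log2 fold change of Eif2ak3 was 0.02, the closest to 0 of the 10, with a 95% interval of -0.36 to 0.40.

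Atf4 (chr15:80255184-80257545), the transcription factor gene translated when eIF2α is phosphorylated, had signals of 9.50, 9.43 and 9.55 in KO arrays, against 8.21, 9.15 and 9.30 in WT arrays. The groups did not overlap, but WT replicate 1 lay far below the other WT arrays. Atf4 averaged 9.49 ± 0.06 in KO and 8.89 ± 0.59 in WT (SD, n = 3 each), a log2 fold change of 0.61 (SE 0.27, limma adjusted p = 0.237, exact permutation p = 0.1). Without WT replicate 1 its log2 fold change was 0.27 (limma adjusted p = 0.178).

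Ddit3 (chr10:127290793-127296291) encodes CHOP, a factor that promotes cell death under lasting ER stress and a known target of ATF4. It had signals of 8.34, 8.30 and 8.36 in KO arrays, against 7.86, 8.60 and 8.29 in WT arrays, so the KO values lay inside the WT range. Its log2 fold change was 0.08 (SE 0.19, 95% interval -0.36 to 0.53), and it was -0.11 without WT replicate 1.

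Trib3 (chr2:152337425-152344060), which encodes a pseudokinase induced by ATF4 and CHOP, was the 1 gene of the 10 with a negative fold change. Its signals were 5.89, 5.59 and 5.38 in KO arrays, against 5.79, 6.17 and 6.03 in WT arrays. KO replicate 1 lay above WT replicate 1, while KO replicates 2 and 3 lay below all WT arrays. The log2 fold change of Trib3 was -0.38 (SE 0.18, 95% interval -0.79 to 0.03, limma adjusted p = 0.257), and the exact permutation p was 0.2.

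**Figure D2:**
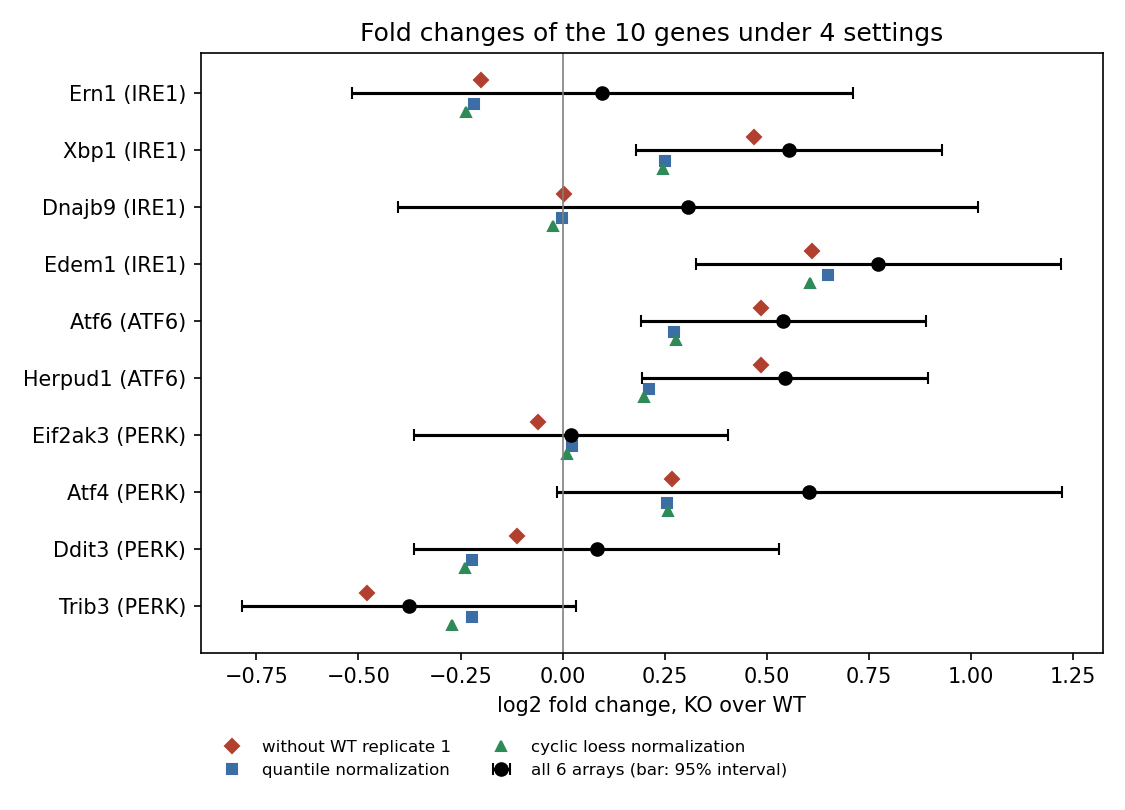
Log2 fold change, KO over WT (horizontal axis), of the 10 genes with the branch in brackets: black points and bars give all 6 arrays with the limma 95% interval, and coloured markers leave out WT replicate 1 or normalize by quantile or cyclic loess. Xbp1, Edem1, Atf6, Herpud1 and Atf4 stay positive and Trib3 negative under all 4 settings, while Ern1, Dnajb9, Eif2ak3 and Ddit3 lie near or on both sides of 0.

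The branches were compared through the mean deviation of their genes from each gene's average over the 6 arrays. In the IRE1 branch this was 0.19, 0.36 and 0.10 in KO arrays, against -0.64, -0.13 and 0.12 in WT arrays, so that WT replicate 3 lay above KO replicate 3. In the ATF6 branch it was 0.25, 0.35 and 0.22 in KO arrays, against -0.39, -0.26 and -0.17 in WT arrays, without overlap. Each of its 2 genes was without overlap by itself, as were 43.9% of the bright genes with KO higher. In the PERK branch it was 0.04, 0.06 and 0.02 in KO arrays, against -0.40, 0.18 and 0.10 in WT arrays, so that 2 WT arrays lay above all KO arrays. The median log2 fold changes were 0.43, 0.54 and 0.05 in that order of branches, and without WT replicate 1 they were 0.24, 0.49 and -0.09. After quantile normalization they were 0.12, 0.24 and -0.10. The bright genes held 3 of the 4 IRE1, 2 of the 2 ATF6 and 2 of the 4 PERK genes. Whether the branches differ from each other was not tested.

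**Figure D3:**
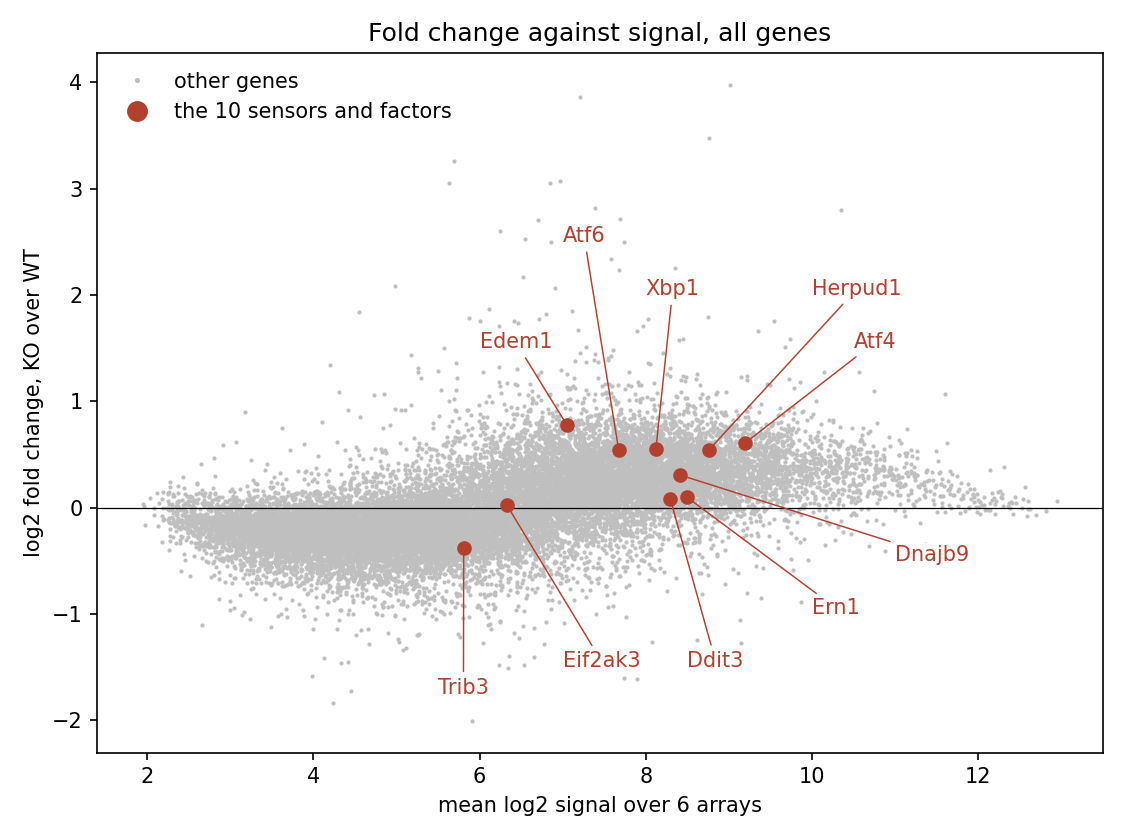
Log2 fold change, KO over WT (vertical axis), against mean log2 signal over the 6 arrays (horizontal axis) for all 19938 genes (grey) and the 10 sensors and factors (red). Fold changes of all genes are mostly below 0 at low signal and mostly above 0 at high signal, and the 10 genes lie within the spread of the grey points.

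Wider sets of genes of each branch were counted in the same fit. Of 17 measured ATF6 pathway genes, which include the ER chaperones, 2 rose, 0 fell and 15 did not pass, against 0.687% of all genes higher. Sdf2l1, a partner of ER chaperones, had signals of 10.02, 9.82 and 9.61 in KO arrays, against 8.57, 8.61 and 8.67 in WT arrays, a gap wider than the spread of either group. It rose 2.30-fold (log2 fold change 1.20, SE 0.15, limma adjusted p = 0.0173). Hyou1, an ER chaperone gene of the Hsp70 family, had signals of 8.998, 8.996 and 8.85 in KO arrays, against 7.83, 8.28 and 8.01 in WT arrays, and rose 1.88-fold (limma adjusted p = 0.0483). The median log2 fold change of the ATF6 pathway genes was 0.52, and all 17 were positive. At an unadjusted limma p under 0.05, 11 were higher, against 13.8% of all genes. Of the 17, 16 belonged to the bright genes, of which 32.9% reached that level in either direction. In 14 every KO value lay above every WT value, as in 43.9% of the bright genes. After quantile normalization the median was 0.24. Hspa5, which encodes the chaperone BiP that binds the sensors, differed by 0.76 on the log2 scale (limma adjusted p = 0.0688) and was named after its value was seen.

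The calls of Sdf2l1 and Hyou1 were not kept throughout. Without WT replicate 2 the limma adjusted p was 0.0531 for Sdf2l1 and 0.0552 for Hyou1, and without WT replicate 3 it was 0.0697 and 0.0878. Without KO replicates 1, 2 and 3 in turn it was 0.142, 0.144 and 0.0632 for Sdf2l1 and 0.272, 0.24 and 0.235 for Hyou1. Quantile normalization gave 0.0834 for Sdf2l1 and 0.0934 for Hyou1, and cyclic loess 0.0596 and 0.0725. An intensity trend lost Hyou1 (limma adjusted p = 0.0508). Log2 fold changes in these fits were 0.86 to 1.31 for Sdf2l1 and 0.58 to 1.03 for Hyou1.

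Of 26 measured IRE1-XBP1 pathway genes, for the ER import machinery, co-chaperones and degradation, 0 passed limma, while 16 were higher and 1 lower at an unadjusted limma p under 0.05, against 13.8% and 7.76% of all genes. The bright genes, of which 32.9% reached that level, held 21 of the 26. Their median log2 fold change was 0.55, and 0.24 after quantile normalization. Pdia6, a protein disulfide isomerase gene, averaged 10.08 ± 0.14 in KO and 9.14 ± 0.25 in WT (SD, n = 3 each), with a log2 difference of 0.94 (limma adjusted p = 0.0531). Dnajb11, the ER co-chaperone ERdj3 gene, averaged 9.38 ± 0.11 in KO and 8.31 ± 0.36 in WT (SD, n = 3 each), with a log2 difference of 1.07 (limma adjusted p = 0.0544). With the replicate number as a block these 2 passed (limma adjusted p = 0.0361 for Pdia6 and 0.0337 for Dnajb11), where 1.41% of all genes were higher. Without WT replicate 1, 7 passed, all higher, where 3.28% of all genes were. The promoters of Pdia6 and Dnajb11, shown above, hold ERSE and ERSE-II letters.

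Of 28 measured PERK-ATF4 pathway genes 1 rose, 0 fell and 27 did not pass, against 0.687% of all genes higher. The median log2 fold change was 0.29, and it was 0.13 without WT replicate 1 and 0.09 after quantile normalization. Ero1a, the ER oxidase gene whose product drives disulfide formation and which CHOP is known to induce, had signals of 8.72, 8.78 and 8.54 in KO arrays, against 7.33, 7.62 and 7.57 in WT arrays. The groups were far apart relative to their spread, and Ero1a rose 2.25-fold (log2 fold change 1.17, SE 0.15, limma adjusted p = 0.0182). Its call was kept under quantile normalization (limma adjusted p = 0.0385) and lost without WT replicate 3 (0.0697) or KO replicates 1, 2 and 3 in turn (0.152, 0.151 and 0.0836). At an unadjusted limma p under 0.05, 9 genes of this list were higher and 1 lower, against 13.8% and 7.76% of all genes. Of the 28, 15 belonged to the bright genes, of which 32.9% reached that level in either direction.

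Of 13 measured genes for eIF2 kinases other than PERK, eIF2, its exchange factor eIF2B and its phosphatase, 0 passed limma and 9 were higher at an unadjusted limma p under 0.05, against 13.8% of all genes. The bright genes, of which 32.9% reached that level in either direction, held 12 of the 13. Eif2s2, the eIF2β subunit gene, differed by 0.71 on the log2 scale (limma adjusted p = 0.0675), and Eif2b2, an eIF2B subunit gene, by 0.77 (limma adjusted p = 0.13). The median log2 fold change of the list was 0.44, against 0.30 for the bright genes, and it was 0.31 without WT replicate 1 and 0.20 after quantile normalization. IRE1 is known to cleave the mRNAs of 7 listed genes. Of these, 0 passed (against 0.818% of all genes) and 0 reached an unadjusted limma p under 0.05 (against 21.6%). Their median log2 fold change was 0.09, and -0.05 after quantile normalization. The bright genes held only 2 of the 7. Log2 fold changes were 0.41 for Hgsnat, a lysosomal enzyme gene, and -0.31 for Col6a1, a collagen gene.

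**Figure D4:**
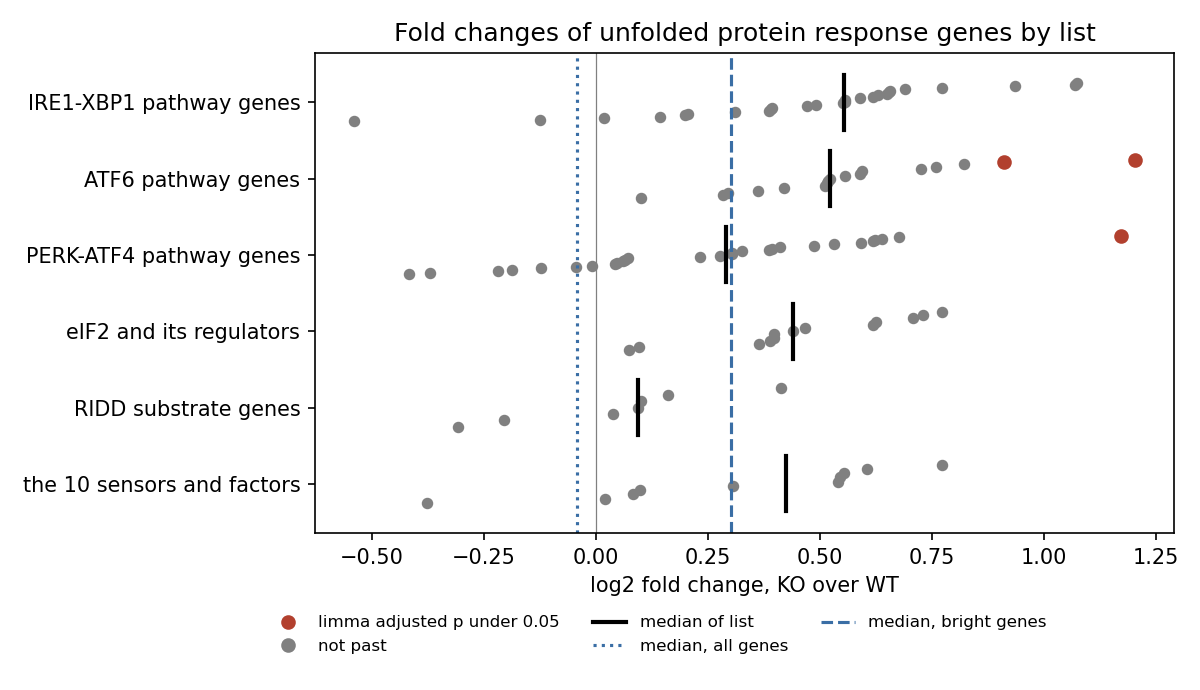
Log2 fold change, KO over WT (horizontal axis), of each measured gene of 5 pathway lists and of the 10 sensors and factors, with red points for genes past limma at an adjusted p under 0.05, black lines for list medians and blue lines for the medians of all genes (dotted) and of the bright genes (dashed). Red points are Hyou1 and Sdf2l1 among ATF6 pathway genes and Ero1a among PERK-ATF4 pathway genes.

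Markers of some other cell types differed between the groups. For comparison, limma called 0.687% of all genes higher and 0.13% lower at an adjusted p under 0.05. At an unadjusted limma p under 0.05, 13.8% of all genes were higher and 7.76% lower. The fit with the replicate block called 1.87% of all genes, and that without WT replicate 1 called 4.66%. Of 11 markers of neutrophil and monocyte precursors 10 rose and 0 fell, and their summed linear signal was 14896 to 17370 in KO arrays, against 3623 to 4416 in WT arrays. Mpo, the myeloperoxidase gene, averaged 12.13 in KO and 11.06 in WT, and Prtn3, the proteinase 3 gene, 11.75 in KO and 9.66 in WT. Of 7 mast cell and basophil markers 3 rose (Fcer1a, Ms4a2 and Hdc, named after their values were seen), with a summed signal of 3264 to 4030 in KO arrays, against 1586 to 2662 in WT arrays. The part of these markers in the levels of Xbp1, Edem1, Atf6, Herpud1 and the ER chaperone genes was not tested. No marker of these lists was at 0. Plasma cells are known for high Xbp1. Of 10 markers of B and plasma cells 0 passed limma, 0 were higher and 2 were lower at an unadjusted limma p under 0.05. Their summed signal was 882 to 1292 in KO arrays, against 830 to 1195 in WT arrays. Only 2 of the 10, Cd79b and Vpreb1, belonged to the bright genes. The part of plasma cells in the level of Xbp1 was not tested. Of the 12 mature granulocyte and macrophage, 8 T and NK cell, 5 erythroid and 8 stroma and endothelium markers, 0 passed limma. At an unadjusted limma p under 0.05 these lists had 1, 0, 3 and 0 higher and 2, 5, 1 and 1 lower markers, in that order. Of the 8 T and NK cell markers 0 belonged to the bright genes. The median log2 fold change of all genes outside that group was negative, -0.22 among dim genes and -0.09 among those between. Of 9 sorted stem and progenitor cell markers, Hlf, a transcription factor gene named after its value was seen, fell and 8 did not pass. At an unadjusted limma p under 0.05, 1 was higher (Cd48) and 4 were lower (Procr, Meis1, Hlf and Mecom), and without WT replicate 1 these and Kit (lower) passed limma. With the replicate number as a block Cd48 (higher) and Mecom (lower) passed beside Hlf, as did Cd68 (higher, limma adjusted p = 0.0151), Tfrc (higher, 0.0421) and Emcn (lower, 0.0283) of the lists without a call, and 5 mast cell and basophil markers in place of 3. Without WT replicate 1 Prdm1 of the B and plasma cell list (limma adjusted p = 0.0444) and Cd3d (0.0492) and Il2rb (0.0324) of the T and NK cell list passed as lower, and Cd68 (0.0427) and Tfrc (0.0152) as higher. These genes were named after their values were seen.

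Genes with a pattern over the arrays most like that of each sensor were named by Pearson's r over the 6 arrays, as a description. For Ern1 they were Ube2e3 (r = 0.996) and Gstm7 (r = 0.993), among 151 genes with r over 0.95. For Atf6 they were Acot9 (r = 0.998) and Gstm3 (r = 0.995), among 126. For Eif2ak3 they were Cryzl2 (r = 0.993) and Rtl6 (r = 0.976), among 9. Without WT replicate 1, r was 0.977 to 0.999 for these 6 genes. Ube2e3, the nearest to Ern1, had signals of 8.68, 8.84 and 8.71 in KO arrays, against 8.26, 8.68 and 9.13 in WT arrays, again with WT replicate 1 lowest and WT replicate 3 highest.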

How the data were processed

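Log2 expression values of the 6 arrays come as 1 table that the authors deposited, and per the submitters' processing notes RMA, Affymetrix Expression Console and Partek were used. Versions and genome build are not given in the sources used here. One inconsistency remains, as the design text names an exon array and the probe annotation supplied belongs to a gene array. Of 35557 rows, 21789 have 1 symbol, and the row with the highest mean over the arrays was kept for each of 19938 genes. Groups and replicate numbers come from the titles. The fit of KO against WT used limma 3.58.1 under R 4.3.3 without covariates, two-sided, and p-values were adjusted over all genes by Benjamini-Hochberg, with a threshold of 0.05. The number of arrays limits the precision. The fit was tested on simulated data. Alternatives were a replicate block, quantile and cyclic loess normalization, centring on array medians, leaving out dim genes, array weights, an intensity trend, the mean over a gene's rows, and each array left out in turn.

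The members and lists were chosen with earlier results of these data known. Besides the 10 members and Rela, the text names every called gene of a pathway list (or the 2 with the smallest p), the 2 brightest genes of each marker list where values are given, and the 2 genes most like each sensor. Same-numbered arrays had deviations from their group means that correlated at 0.368, 0.119 and 0.162, all above 0.1. The number served as a block in an alternative fit only, and the reported fit and the permutation tests did not pair arrays. The labels do not say what the number marks. KO replicate 3 correlated more with WT replicate 2 (0.195) and KO replicate 2 more with WT replicate 3 (0.183).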

Additional observations from a re-analysis of the deposited data

How the results depend on the processing

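In 14 alternatives, Xbp1 (log2 fold change 0.24 to 0.67), Edem1 (0.61 to 0.93), Atf6 (0.27 to 0.64), Herpud1 (0.20 to 0.67) and Atf4 (0.26 to 0.81) stayed positive and Trib3 (-0.51 to -0.22) negative. The number of sensors and factors past the threshold stayed at 0 in 13 of them and was 2 with array weights. The sign turned for Ern1 under quantile normalization (-0.22), cyclic loess (-0.24) and array weights (-0.20), for Dnajb9 under the same settings (-0.0020, -0.0236 and -0.0228), for Ddit3 (-0.22, -0.24 and -0.0542) and for Eif2ak3 under array weights (-0.0183). Leaving out each replicate in turn gave -0.20 to 0.37 for Ern1, 0.0027 to 0.67 for Dnajb9, -0.0792 to 0.16 for Eif2ak3 and -0.11 to 0.26 for Ddit3. Rela passed under 4 settings (-0.64 to -0.49). The cause was not tested. Over all genes, the count of 163 became 372 with the replicate block, which changed the call of none of the 10 genes, 252 with cyclic loess, 314 with arrays centred on their medians, 505 without the dim genes and 1599 with array weights. The called genes numbered 0 to 12 in the IRE1-XBP1 list (0 in the reported fit), 0 to 9 in the ATF6 list (2), 0 to 4 in the PERK-ATF4 list (1), 0 to 2 in the eIF2 list (0) and 0 in the list of IRE1-cleaved mRNAs. Leaving out a replicate gave 21 to 929 genes, and 0 of the 10 genes each time. Whether dim rows lie above background was not measured, and Trib3 had the lowest signals of the 10.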
